A study of Homo sapiens with 13 samples.

Results

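Iron-sulphur cluster and heme synthesis was described over 33 genes chosen by name, as a pathway and not by their values in these data. They fall into 13 genes of heme synthesis and heme transport, 16 of cluster assembly and iron import in mitochondria and 4 of cluster assembly in the cytosol. For 31 of them a row of the table carried that gene's symbol alone, out of 18404 genes so named; FDXR and NUBP2 had none and were not analysed here. Cells of SW480, a line derived from a human colon tumour, had been kept for 6 h in 100 mM DFO (4 arrays), in 50 mM Deferasirox (3 arrays), in 10 mM OICR623 (2 arrays) or in 0.1 percent DMSO, the solvent control (4 arrays). Doses are given as the labels have them, and nothing in the labels settles whether another unit was meant. DFO is deferoxamine, an iron chelator used in patients, as is Deferasirox, while OICR623 is a code name. Replicates came from separate experiments, according to the series text, and RNA was read on Affymetrix Human Gene 1.0 ST arrays, whose probes lie along the whole transcript. A lower signal can stand for fewer expressing cells or for less RNA per cell, which cannot be told apart in such bulk samples.

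Iron that enters the mitochondrion goes mainly into heme and iron-sulphur clusters. In heme synthesis, ALAS1 joins glycine and succinyl-CoA in the mitochondrion, the next enzymes build a porphyrin ring in the cytosol, and FECH at last inserts the iron inside the mitochondrion. In cluster assembly, NFS1 draws sulphur from cysteine, ISCU is the scaffold on which iron and sulphur are joined, and later factors hand the cluster to enzymes of respiration, while a separate cytosolic machinery serves DNA repair and replication enzymes. Heme is known to repress ALAS1, so the gene is a common readout of heme supply in liver and other tissues.

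By their median log2 signal the 13 arrays formed 3 levels, each of which mixed treated and DMSO arrays. The high level held DFO 1 and DMSO 1 (7.17 to 7.19), the low level DFO 4, Deferasirox 3 and DMSO 4 (6.52 to 6.55), and the middle level the other 8 arrays (6.64 to 6.69). The high and low levels held no more than 1 array of a group, so groups cannot overlap there. Between the high and the middle level the fitted signals of the 31 genes differed by 0.34 to 1.19 on the log2 scale (median 0.67), and the largest difference between a compound and DMSO was 0.36. Changes are therefore taken from limma with the level as a block, over all 13 arrays, and a gene is said to be called where its p, adjusted by Benjamini and Hochberg's method across the 18404 genes, is under 0.05. Without the block limma called none of the 31 genes under DFO, Deferasirox or OICR623, against 0.245%, 0.234% and 0.038% of all genes. In those fits 0 of the 31 had an unadjusted p under 0.05, against 202, 307 and 104 of the 18404 genes. Of the 9 intestinal epithelium markers KRT18 (13.02) and KRT8 (12.67) had the highest mean log2 signals and CDH1 (5.52) and TSPAN8 (4.03) the lowest. The markers of fibroblasts (6 measured), endothelium (5), leukocytes (5) and red cells (4) averaged 3.27 to 7.77. With the block none of these was called under any compound, against 4.6%, 5.84% and 0.734% of all genes under DFO, Deferasirox and OICR623. Of the 9 epithelial markers 22.2% were called under DFO, 22.2% under Deferasirox and 0% under OICR623. CDX2, an intestinal transcription factor gene, was lower and KRT19, a keratin gene, higher under DFO (differences of -0.49 and 0.35) and under Deferasirox (-0.77 and 0.33). Their part in the results was not tested.

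ALAS1 rose under DFO and Deferasirox, and SLC25A38, which encodes the mitochondrial glycine carrier that feeds heme synthesis, fell under both. NFS1 and FLVCR1 fell under Deferasirox, and a row named ISCA1 rose there. Under DFO 2 of the 31 genes were called (6.45%), against 4.6% of all genes tested: 1 was higher, against 1.89% of all genes, and 1 lower, against 2.72%. Under Deferasirox 5 were called (16.1%), against 5.84% of all genes: 2 were higher, against 2.83%, and 3 lower, against 3%. Of the 2 higher, 1 was the ISCA1 row, which is uncertain as a measure of that gene. Under OICR623 none was called, against 0.734% of all genes. At an unadjusted p under 0.05 there were 7 of the 31 genes under DFO (22.6%, against 15.7% of all genes), 10 under Deferasirox (32.3%, against 18%) and 8 under OICR623 (25.8%, against 10.7%). The median difference from DMSO of the 31 genes was -0.03 under DFO, -0.02 under Deferasirox and -0.02 under OICR623, and that of all genes was 0.002, 0.002 and 0.003. All 3 comparisons share the same 4 DMSO arrays.

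The promoters of ALAS1, SLC25A38, NFS1 and FLVCR1 are shown, since these are the called genes with a single row in the table. They are the 250 bases before the gene's start as RefSeq gives it on GRCh38.p14, written 5' to 3' on the gene's strand: ALAS1 at chr3:52197833-52198082 (plus strand), SLC25A38 at chr3:39383120-39383369 (plus strand), NFS1 at chr20:35699353-35699602 (minus strand) and FLVCR1 at chr1:212858025-212858274 (plus strand). Capitals mark the core of the hypoxia response element, ACGTG, the E-box CACGTG, which contains that core, and an NRF-1 motif spelled GCGC, any base, TGCGC, each searched on both strands.
ALAS1: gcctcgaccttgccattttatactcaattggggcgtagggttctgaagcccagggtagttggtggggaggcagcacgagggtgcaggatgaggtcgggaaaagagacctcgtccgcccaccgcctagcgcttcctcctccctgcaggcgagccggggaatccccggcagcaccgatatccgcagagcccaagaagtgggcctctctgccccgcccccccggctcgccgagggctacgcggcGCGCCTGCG
SLC25A38: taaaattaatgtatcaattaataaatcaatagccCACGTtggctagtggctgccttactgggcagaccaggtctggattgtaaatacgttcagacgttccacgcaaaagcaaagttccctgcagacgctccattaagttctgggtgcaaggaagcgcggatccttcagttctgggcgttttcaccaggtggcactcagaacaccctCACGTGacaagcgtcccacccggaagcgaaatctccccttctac
NFS1: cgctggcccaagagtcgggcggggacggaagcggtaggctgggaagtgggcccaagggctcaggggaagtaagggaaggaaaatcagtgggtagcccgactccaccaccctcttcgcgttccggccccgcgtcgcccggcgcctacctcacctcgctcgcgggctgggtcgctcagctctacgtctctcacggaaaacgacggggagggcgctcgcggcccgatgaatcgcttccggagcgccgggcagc
FLVCR1: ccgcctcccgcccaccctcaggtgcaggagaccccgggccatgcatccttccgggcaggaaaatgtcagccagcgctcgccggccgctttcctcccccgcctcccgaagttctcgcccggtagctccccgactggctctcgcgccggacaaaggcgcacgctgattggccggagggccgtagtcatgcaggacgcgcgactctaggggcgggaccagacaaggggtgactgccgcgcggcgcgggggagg
The search window also took in the 50 bases after the start. In ALAS1, GCGCCTGCGC ran from base -9 to the first base of the transcript, so its last letter falls outside the stretch shown, and GCGCATGCGC lay at bases 22 to 31 after the start. In SLC25A38, ACGTG or its complement lay at bases -216 to -212 and, as part of CACGTG, at bases -44 to -39. NFS1 and FLVCR1 held none of these letters in the window. Of the 33 genes, 30 had a promoter in the RefSeq table: 11 of them (36.7%) held ACGTG, against 23.7% of 15843 protein-coding promoters, 5 (16.7%) held CACGTG, against 8.9%, and 3 (10.0%; ALAS1, ISCU and NUBP1) held the NRF-1 motif, against 8.6%. A match is a description of the letters and not a binding site.

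ALAS1, which encodes the first and rate-limiting enzyme of heme synthesis outside red cells (transcript cluster 8080184; chromosome 3, 52198083 to 52214327 on GRCh38.p14), rose under DFO and Deferasirox. Its log2 signal was 10.62, 10.30, 10.48 and 10.33 in DFO 1 to 4, 10.35, 10.39 and 10.41 in Deferasirox 1 to 3 and 10.37 and 10.45 in OICR623 1 and 2, against 10.47, 9.98, 10.08 and 10.01 in DMSO 1 to 4. Apart from DMSO 1, which lies in the high level, every DMSO array was below every treated array. The difference from DMSO was 0.30 under DFO (SE 0.05, 95% interval 0.18 to 0.42, adjusted p = 0.0086), or 1.23-fold. It was 0.33 under Deferasirox (SE 0.06, interval 0.20 to 0.47, adjusted p = 0.0079), or 1.26-fold. Under OICR623 it was 0.36 (SE 0.07, interval 0.20 to 0.52), or 1.28-fold, with an adjusted p of 0.051 that narrowly missed the threshold. Taken level by level, DFO minus DMSO was 0.15 (high), 0.36 (middle) and 0.33 (low), the difference of Deferasirox and DMSO 0.34 in the middle and 0.40 in the low level, and that of OICR623 and DMSO 0.38 in the middle level, the only one that held OICR623 arrays. The DFO call held when each of the 13 arrays was left out in turn. The Deferasirox call was lost only without Deferasirox 3 (differences of 0.30 to 0.36 over the 13 fits). For OICR623 ALAS1 was called without DMSO 1, DFO 1 or DFO 3 (adjusted p = 0.033, 0.033 and 0.019). Leaving out DMSO 1 or DFO 1 gives the same fit, since the other is then alone in its level. When the 8 DFO and DMSO arrays were fitted with replicate number as their block, ALAS1 under DFO kept an adjusted p of 0.03; with that block in place of the level over all 13 arrays it had an adjusted p of 1.

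**Figure D1:**
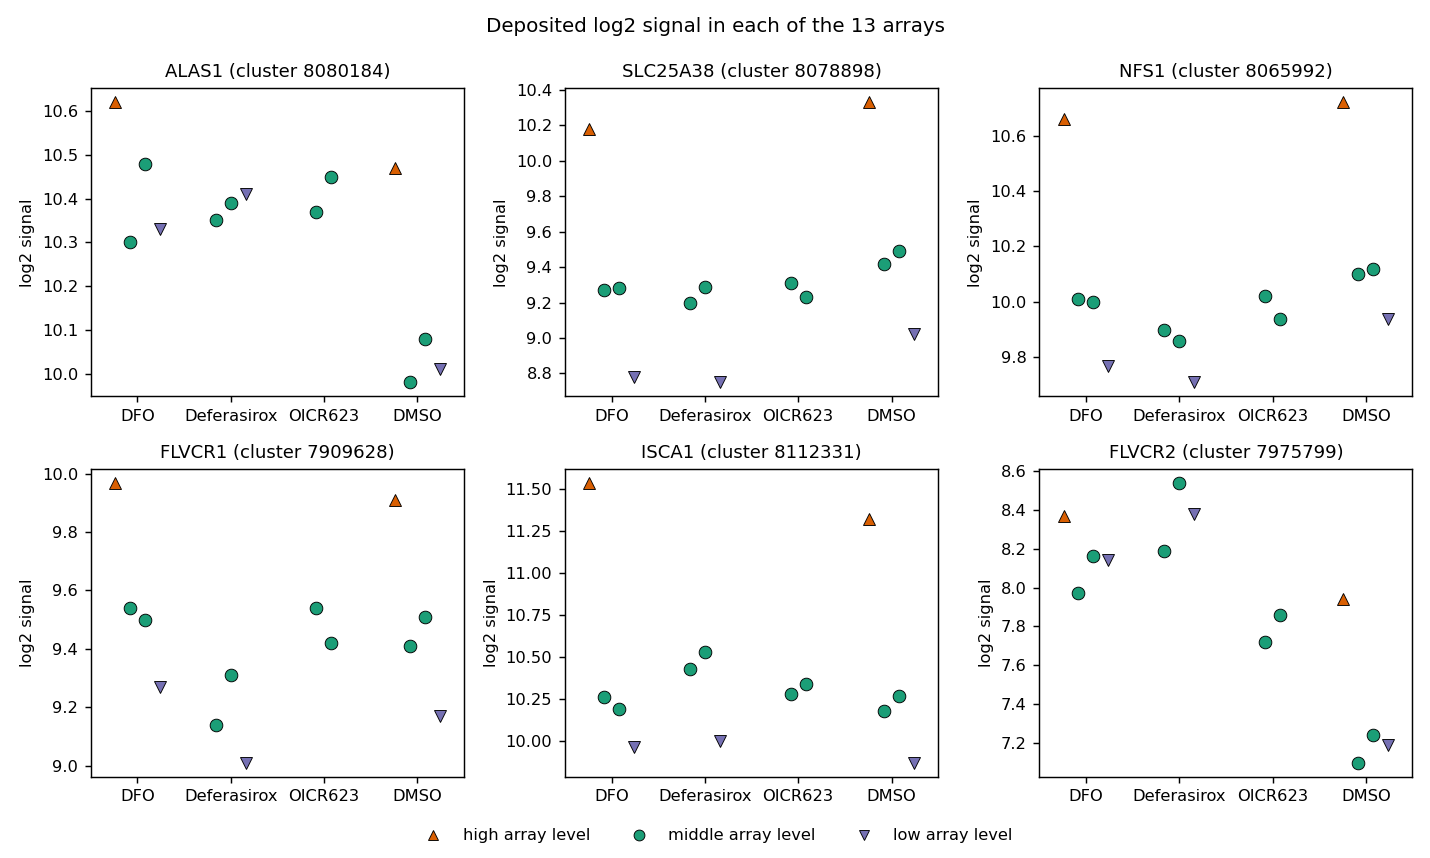
Deposited log2 signal (vertical axis, a separate scale per gene) of 6 genes in each array, by treatment (DFO, Deferasirox, OICR623, DMSO); each point is 1 array and its shape and colour give the array's level. Treated arrays are higher than the DMSO arrays of their own level for ALAS1 and FLVCR2 and lower for SLC25A38 and NFS1.

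Of the 13 heme genes 15.4%, 23.1% and 0% were called under DFO, Deferasirox and OICR623, against 4.6%, 5.84% and 0.734% of all genes. Of the remaining enzymes of the heme path, which act after ALAS1, none was called under any compound. ALAD, which makes porphobilinogen, stood at -0.07, 0.03 and -0.08 relative to DMSO under DFO, Deferasirox and OICR623. UROS and UROD, which close and trim the porphyrin ring in the cytosol, stood at -0.07, -0.04 and -0.05 and at -0.06, -0.09 and -0.115 under the same compounds. For UROD under OICR623 the interval was -0.227 to -0.002. CPOX, which acts in the space between the mitochondrial membranes, stood at 0.13, 0.14 and 0.17 (intervals -0.003 to 0.27, -0.01 to 0.29 and -0.01 to 0.35). PPOX, which makes the protoporphyrin that FECH uses, stood at -0.04, 0.01 and -0.01. FECH, the iron-inserting enzyme, which itself carries an iron-sulphur cluster, stood at -0.10, -0.15 and -0.10 with adjusted p values of 0.36, 0.16 and 0.66. The intervals for FECH were -0.21 to 0.01, -0.27 to -0.03 and -0.24 to 0.04. HMOX2, the constitutive heme oxygenase gene, stood at 0.02, 0.06 and -0.03.

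Of the transport genes in the heme group, SLC25A38 (transcript cluster 8078898; chromosome 3, 39383370 to 39397351) was the one called under 2 compounds. Its log2 signal was 10.18, 9.27, 9.28 and 8.78 in DFO 1 to 4 and 9.20, 9.29 and 8.75 in Deferasirox 1 to 3, against 10.33, 9.42, 9.49 and 9.02 in DMSO 1 to 4. OICR623 1 and 2 had 9.31 and 9.23. Within each level every treated array was below every DMSO array, although the groups overlapped across levels. The difference from DMSO was -0.19 under DFO (SE 0.04, interval -0.27 to -0.10, adjusted p = 0.020), -0.22 under Deferasirox (SE 0.04, interval -0.32 to -0.13, adjusted p = 0.012) and -0.19 under OICR623 (SE 0.05, interval -0.30 to -0.08, adjusted p = 0.16). As ratios these are 0.878, 0.857 and 0.877 of the DMSO level. DFO minus DMSO was -0.15 in the high level, -0.18 in the middle and -0.24 in the low one. The DFO call was lost without any 1 of DFO 2, DFO 3, DFO 4, DMSO 3 and DMSO 4, and the Deferasirox call without any 1 of Deferasirox 1, Deferasirox 3 and DMSO 4. When the 8 DFO and DMSO arrays were fitted by replicate pair, SLC25A38 kept an adjusted p of 0.047 under DFO; with that block in place of the level over all 13 arrays it had an adjusted p of 1 under DFO and 0.15 under Deferasirox.

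FLVCR1, which encodes a membrane transporter described as a heme exporter (transcript cluster 7909628; chromosome 1, 212858275 to 212899363), fell under Deferasirox and was not called under the other compounds. Its log2 signal was 9.14, 9.31 and 9.01 in Deferasirox 1 to 3 and 9.97, 9.54, 9.50 and 9.27 in DFO 1 to 4, against 9.91, 9.41, 9.51 and 9.17 in DMSO 1 to 4; OICR623 1 and 2 had 9.54 and 9.42. Within the middle and low levels the Deferasirox arrays lay below the DMSO arrays, while the DFO arrays of the middle level overlapped with them. The difference from DMSO was -0.21 under Deferasirox (SE 0.05, interval -0.33 to -0.09, adjusted p = 0.048), 0.07 under DFO (interval -0.04 to 0.18) and 0.03 under OICR623 (interval -0.11 to 0.17). The Deferasirox call was lost in 10 of the 13 fits that left out 1 array, the exceptions being those without OICR623 1, OICR623 2 and Deferasirox 2. Of the 10, those without DMSO 1 and without DFO 1 are the same fit. Set directly against DFO, Deferasirox gave -0.28 (interval -0.40 to -0.16, unadjusted p = 0.000351), which had an adjusted p of 0.13 over all genes, and OICR623 against Deferasirox gave 0.24 (interval 0.10 to 0.39, adjusted p = 0.27).

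The other transport genes in the heme group were not called, against 4.6%, 5.84% and 0.734% of all genes called under DFO, Deferasirox and OICR623. ABCB10, a transporter of the inner mitochondrial membrane, stood at 0.17, 0.18 and 0.17 under DFO, Deferasirox and OICR623 (adjusted p = 0.16, 0.16 and 0.44). Its intervals, 0.04 to 0.29, 0.04 to 0.32 and 0.01 to 0.34, lay above 0. ABCB6, a porphyrin transporter, stood at -0.02, 0.02 and -0.06. TMEM14C, which in mouse red cell precursors is needed for porphyrin import, stood at 0.01, 0.05 and 0.04. The 95% intervals of the heme genes that were not called reached from -0.21 to 0.29 under DFO, from -0.27 to 0.32 under Deferasirox and from -0.30 to 0.52 under OICR623.

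**Figure D2:**
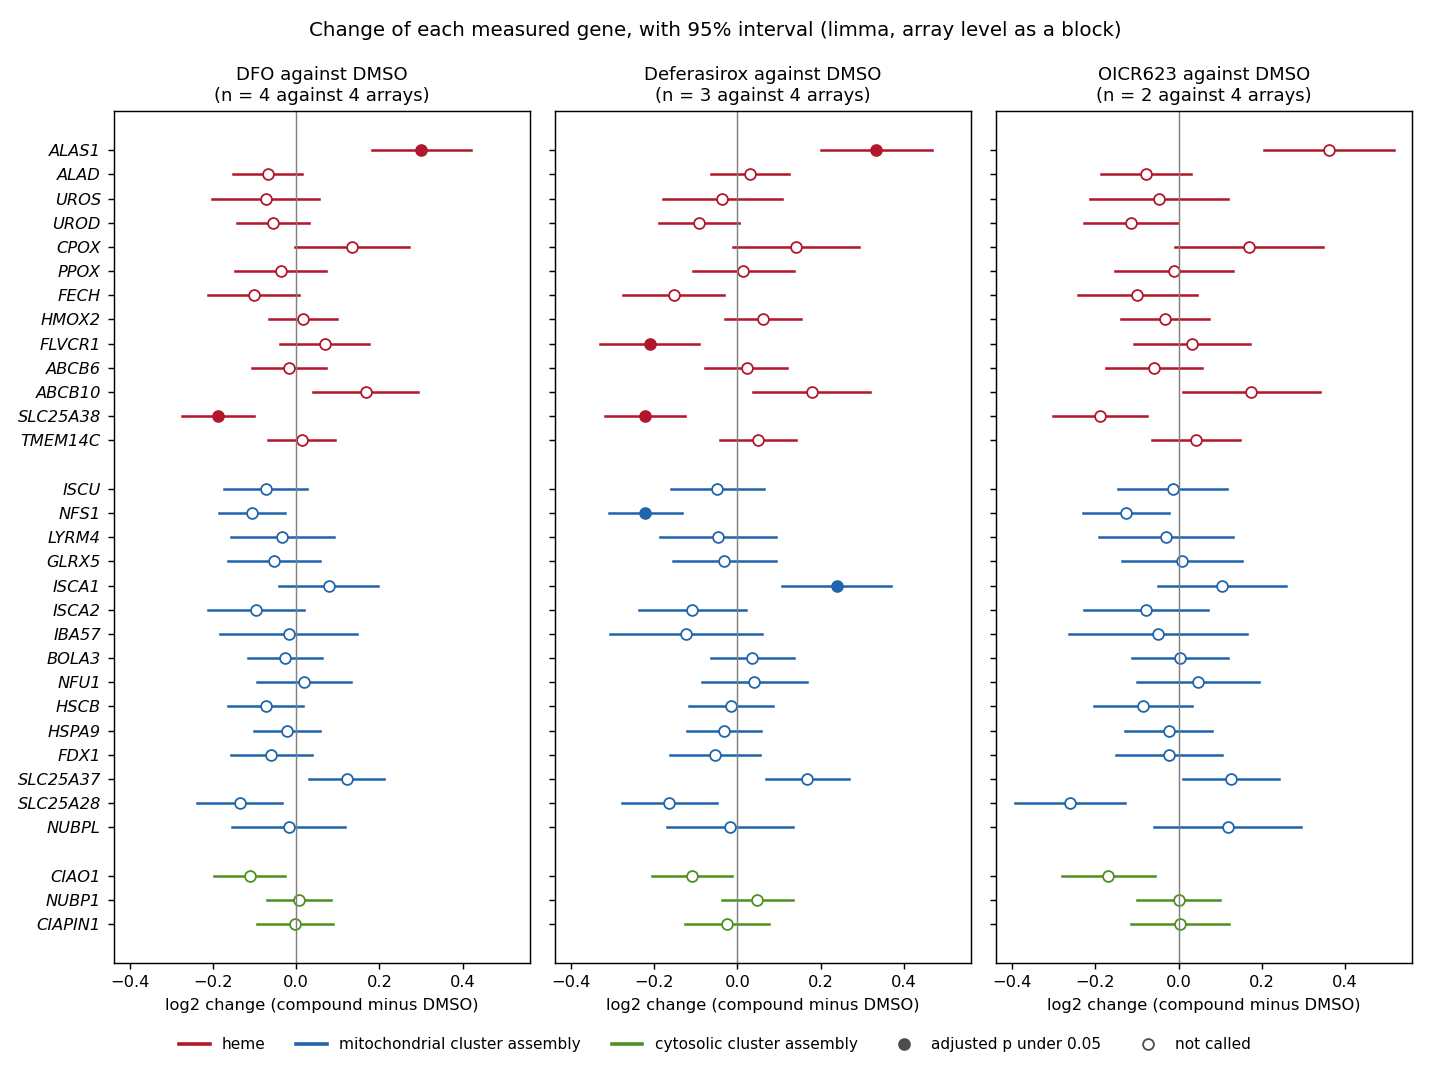
Log2 change of each of the 31 measured genes against DMSO (point, horizontal axis) with its 95% interval (line), by compound and by heme, mitochondrial and cytosolic group, from limma with the array level as a block; filled points have an adjusted p under 0.05. ALAS1 lies to the right of 0 in all 3 panels and SLC25A38 to the left, while most intervals of the mitochondrial and cytosolic genes include 0.

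Of the 15 measured mitochondrial genes 2 were called, both under Deferasirox (13.3%, against 5.84% of all genes). NFS1 fell, and the ISCA1 row, which is uncertain as a measure of that gene, rose. NFS1, the cysteine desulphurase that supplies the sulphur (transcript cluster 8065992; chromosome 20, 35668052 to 35699352), had log2 signals of 9.90, 9.86 and 9.71 in Deferasirox 1 to 3, 10.66, 10.01, 10.00 and 9.77 in DFO 1 to 4 and 10.02 and 9.94 in OICR623 1 and 2. In DMSO 1 to 4 they were 10.72, 10.10, 10.12 and 9.94. Within each level every treated array lay below every DMSO array, for all 3 compounds. Only the middle level set 2 arrays against 2, and it alone held OICR623 arrays. The difference from DMSO was -0.22 under Deferasirox (SE 0.04, interval -0.31 to -0.13, adjusted p = 0.0080), a ratio of 0.858, and the call held without each of the 13 arrays in turn (-0.23 to -0.21). Under DFO it was -0.11 (interval -0.19 to -0.03, adjusted p = 0.15) and under OICR623 -0.13 (interval -0.23 to -0.02, adjusted p = 0.34). Deferasirox against DFO gave -0.115 for NFS1 (interval -0.20 to -0.03, unadjusted p = 0.0158), with an adjusted p of 0.35 over all genes.

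ISCA1, which passes clusters to mitochondrial enzymes, had 2 rows, and they gave different answers. The row with the higher signal (transcript cluster 8112331) had 10.43, 10.53 and 10.00 in Deferasirox 1 to 3, against 11.32, 10.18, 10.27 and 9.87 in DMSO 1 to 4; DFO 1 to 4 had 11.54, 10.26, 10.19 and 9.96 and OICR623 1 and 2 had 10.28 and 10.34. Deferasirox 1 and 2 lay above the DMSO arrays of the middle level and Deferasirox 3 above that of the low level. The difference under Deferasirox was 0.24 (SE 0.06, adjusted p = 0.043), and this call was lost in 11 of the 13 fits that left out 1 array, the exceptions being those without DFO 3 and Deferasirox 3. Of the 11, those without DMSO 1 and without DFO 1 are the same fit. The other row (transcript cluster 8162142), fitted among all named rows, stood at 0.08 (SE 0.06, adjusted p = 0.50). The ISCA1 gene lies on chromosome 9, as did the genes of the 10 named rows nearest in number to the second row, but 9 of the 10 nearest to the first row were genes of chromosome 5, where the reference gene table places ISCA1P1, one of several ISCA1 pseudogenes. The value of the first row is thus uncertain as a measure of ISCA1. The same held for GLRX5, a glutaredoxin that carries clusters onwards: the row used lay among rows of chromosome X, where GLRX5P1 is placed, and neither of its rows was called, with differences of -0.05 to 0.05 under the 3 compounds.

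The 2 mitoferrin genes, whose products carry iron into the mitochondrion, had differences of opposite sign under every compound, and neither was called. SLC25A37 (mitoferrin-1, transcript cluster 8145281) stood at 0.12, 0.17 and 0.13 under DFO, Deferasirox and OICR623, with adjusted p values of 0.15, 0.056 and 0.42. Its second row (transcript cluster 8145291) stood at 0.02, 0.02 and 0.05. SLC25A28 (mitoferrin-2) stood at -0.14, -0.16 and -0.26 (intervals -0.24 to -0.03, -0.28 to -0.05 and -0.39 to -0.13), with adjusted p values of 0.16, 0.10 and 0.098. In the middle level its log2 signal was 8.63 and 8.71 in DFO, 8.71 and 8.67 in Deferasirox and 8.52 and 8.65 in OICR623, against 8.87 and 8.89 in DMSO, without overlap; in the low level DFO and DMSO differed by -0.01. SLC25A37 was called under Deferasirox without DMSO 1 or DFO 1, which give the same fit (adjusted p = 0.049).

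Under DFO the 15 measured genes lay between -0.14 and 0.12, with 12 below 0 and a median of -0.03. None was called, against 4.6% of all genes. ISCU, the scaffold, stood at -0.07, -0.05 and -0.01 under DFO, Deferasirox and OICR623 (intervals -0.17 to 0.03, -0.16 to 0.06 and -0.14 to 0.12). LYRM4, which stabilises NFS1, stood at -0.03, -0.05 and -0.03, and FDX1, a ferredoxin, at -0.06, -0.05 and -0.02. Of the chaperones that release the cluster from ISCU, HSPA9 stood at -0.02, -0.03 and -0.02 and HSCB at -0.07, -0.02 and -0.09. Of the late-acting factors, ISCA2 stood at -0.10, -0.11 and -0.08, IBA57 at -0.02, -0.12 and -0.05, NFU1 at 0.02, 0.04 and 0.05 and BOLA3 at -0.03, 0.04 and 0.00. NUBPL, which serves respiratory complex I, stood at -0.02, -0.02 and 0.12. The 95% intervals of the uncalled mitochondrial genes reached from -0.24 to 0.21 under DFO, from -0.31 to 0.27 under Deferasirox and from -0.39 to 0.29 under OICR623.

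In the cytosolic group none of the 3 measured genes was called, against 4.6%, 5.84% and 0.734% of all genes under DFO, Deferasirox and OICR623. CIAO1, a part of the targeting complex that hands clusters to client proteins (transcript cluster 8043585), stood at -0.11, -0.11 and -0.17 under DFO, Deferasirox and OICR623 (intervals -0.20 to -0.03, -0.20 to -0.01 and -0.28 to -0.06; adjusted p = 0.16, 0.21 and 0.22). Its difference from DMSO was below 0 in each level, for DFO at -0.06 (high), -0.09 (middle) and -0.21 (low). NUBP1, a scaffold of the cytosolic machinery, stood at 0.007, 0.048 and 0, and CIAPIN1, part of its electron supply, at -0.003, -0.02 and 0.004. Across the whole pathway the 95% interval stayed within 0.5 on the log2 scale, or 1.41-fold, for 31 of 31 genes under DFO and Deferasirox and for 30 of 31 under OICR623, the exception being ALAS1. The median width of the intervals was 0.2, 0.225 and 0.261 under DFO, Deferasirox and OICR623.

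**Figure D3:**
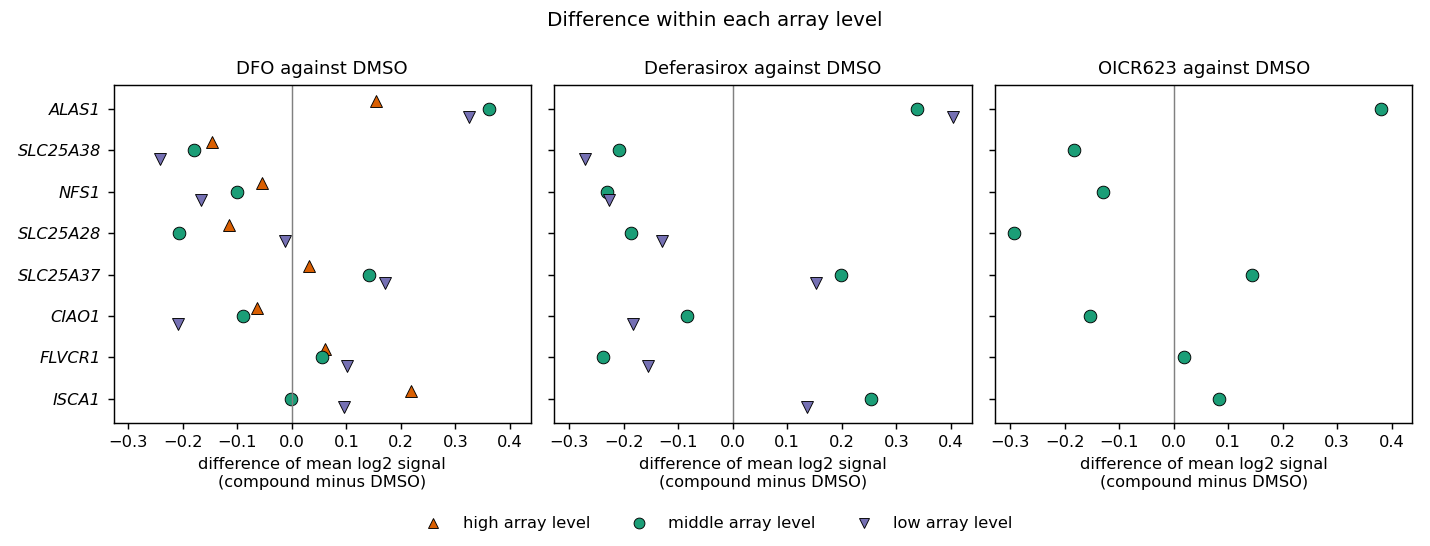
Difference of the mean log2 signal (compound minus DMSO, horizontal axis) within each array level for 8 genes; points are 1 array against 1 in the high and low levels and 2 against 2 in the middle level, and OICR623 was in the middle level only. ALAS1 and SLC25A37 are above 0 and SLC25A38, NFS1, SLC25A28 and CIAO1 below 0 in every level shown, while FLVCR1 is below 0 under Deferasirox and above 0 under DFO.

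The sign of the difference was the same in all 3 levels for 14 of the 31 genes under DFO, 5 higher and 9 lower (45.2%, against 32.5% of all genes), and in both levels for 23 of 31 under Deferasirox, 8 higher and 15 lower (74.2%, against 62.9%). Between compounds, whose labelled doses differed, none of the 31 genes was called by limma in any of the 3 pairs, with 4, 0 and 1 genes at an unadjusted p under 0.05 for Deferasirox against DFO, OICR623 against DFO and OICR623 against Deferasirox (12.9%, 0% and 3.23%, against 10%, 5.67% and 8.54% of all genes). Of all genes 0.0435%, 0.168% and 0.0869% were called in these pairs.

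Around these genes, larger changes were seen in a few others of the pathway. Of 16 measured other heme genes, 1 rose and none fell under DFO, 2 rose under Deferasirox, and none was called under OICR623. These were 6.25%, 12.5% and 0% of the list, against 4.6%, 5.84% and 0.734% of all genes. FLVCR2, the paralog of FLVCR1 (transcript cluster 7975799), had 8.37, 7.97, 8.16 and 8.14 in DFO 1 to 4, 8.19, 8.54 and 8.38 in Deferasirox 1 to 3 and 7.72 and 7.86 in OICR623 1 and 2, against 7.94, 7.10, 7.24 and 7.19 in DMSO 1 to 4. Within each level every treated array was above every DMSO array. It rose by 0.80 under DFO (SE 0.10, adjusted p = 0.00066) and by 1.14 under Deferasirox (SE 0.11, adjusted p = 0.00014), and stood at 0.57 under OICR623 (SE 0.13, adjusted p = 0.086). Without the block limma called none of the 16 genes under any compound, and FLVCR2 had adjusted p values of 0.23 under DFO and 0.073 under Deferasirox. The sign of FLVCR2 was thus opposite to that of FLVCR1 under Deferasirox. BACH1, a heme-binding repressor, rose by 0.34 under Deferasirox (SE 0.08, adjusted p = 0.028). HMOX1, the inducible heme oxygenase gene and a target that BACH1 is known to repress, was named after its values were seen: it stood at 0.03, -0.08 and -0.02 under DFO, Deferasirox and OICR623 (intervals -0.09 to 0.14, -0.21 to 0.05 and -0.17 to 0.13).

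None of the 10 measured other mitochondrial cluster genes and none of the 6 other cytosolic ones was called under any compound. Of all genes 4.6%, 5.84% and 0.734% were called under DFO, Deferasirox and OICR623. Of 29 measured genes for iron-sulphur client proteins, 1 fell under DFO, 2 under Deferasirox and 1 under OICR623, and none rose. These were 3.45%, 6.9% and 3.45% of the list. FBXL5, an iron-sensing ubiquitin ligase subunit that carries a cluster, had 10.71, 10.09, 10.21 and 9.81 in DFO 1 to 4, 10.25, 10.31 and 9.87 in Deferasirox 1 to 3 and 10.31 and 10.20 in OICR623 1 and 2, against 11.14, 10.80, 10.82 and 10.35 in DMSO 1 to 4. Every treated array lay below the DMSO arrays of its level. FBXL5 fell under each compound, with differences of -0.575 (SE 0.05), -0.495 (SE 0.056) and -0.517 (SE 0.066) under DFO, Deferasirox and OICR623 and adjusted p values of 5.9e-05, 0.00041 and 0.0046. Without the block limma called none of the 29 genes, FBXL5 included, under any compound. DPH2, which takes part in diphthamide synthesis, fell by 0.26 on the log2 scale under Deferasirox (SE 0.04, adjusted p = 0.0055). The 18 other mitochondrial genes, which serve the citrate cycle, ATP synthesis, protein import and other tasks, had no call under any compound and differences of -0.085 to 0.135.

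**Figure D4:**
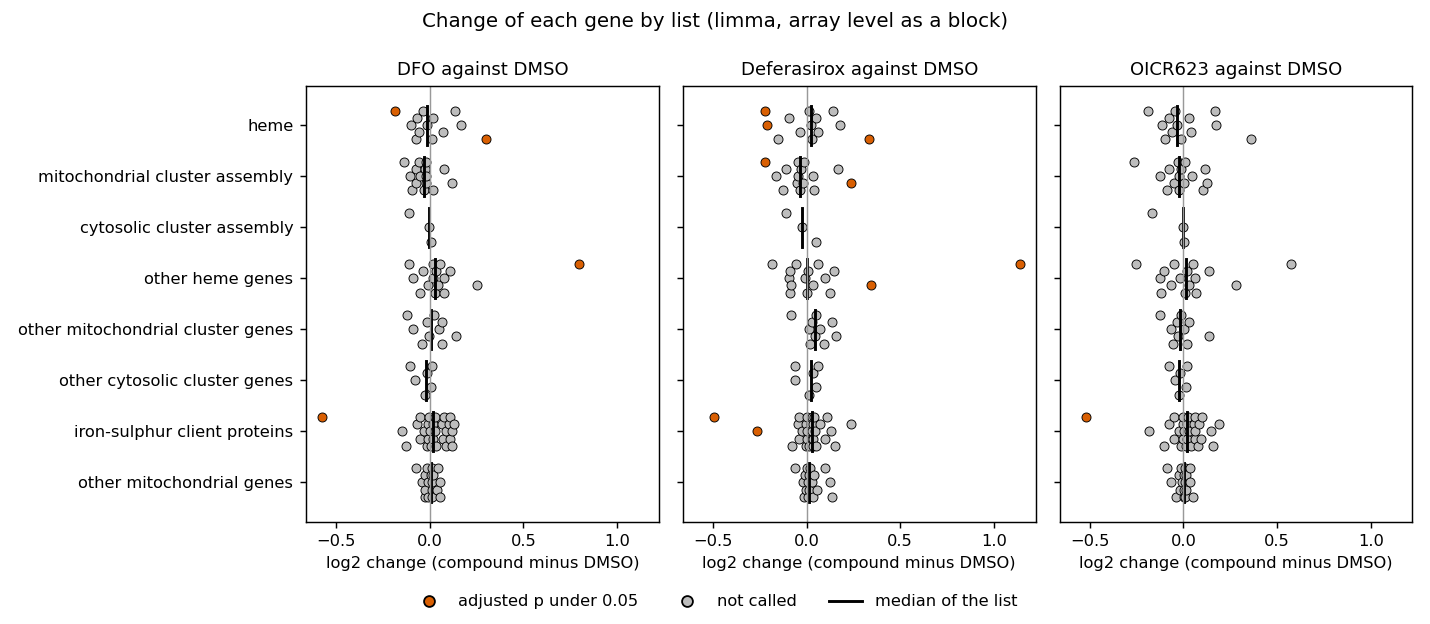
Log2 change against DMSO (horizontal axis) of every measured gene of 8 lists, from limma with the array level as a block; each point is a gene, orange points have an adjusted p under 0.05, and the black bar is the median of the list. FLVCR2 among the other heme genes and FBXL5 among the client proteins lie farther from 0 than any of the 31 genes.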

How the data were processed

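The authors deposited 1 table of log2 signals, a value for each of 32321 transcript clusters and 13 arrays; the log2 scale was read from the range of the values. Per the submitters' processing notes GCRMA and limma were used; neither version nor step is stated, and how arrays were scaled to each other is not given in the sources used here. Of the rows, 19158 were named by 1 gene symbol in the platform annotation, 1388 by several and 11775 by none; 19128 were matched to the reference gene table (GRCh38.p14) by Entrez identifier. Each gene was taken from its brightest row by mean signal, giving 18404 genes, with no filter on dim signals and no detection calls.

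A new level began where neighbouring array medians lay more than 0.05 apart. limma 3.58.1 in R 4.3.3 (statmod 1.5.0) was fitted with 1 mean per group and the level as a fixed block over 13 arrays (7 residual degrees of freedom), with empirical Bayes moderation, 95% intervals and Benjamini-Hochberg adjustment over all genes. The genes, lists and tests were chosen with earlier results of these data known. All 33 genes were to be named, values in every array given for those called against DMSO, and of each other list up to 4 called genes by smallest adjusted p. Pairing by replicate number was tested through correlations of deviations from the group means: same-numbered DFO and DMSO arrays correlated at 0.945, 0.662, 0.738 and 0.788, and those pairs also share a level. For Deferasirox and DMSO the correlations were -0.058, 0.333 and -0.324. The alternatives tried were other blocks, scalings, filters, rows per gene, moderation and sets of arrays. Precision is limited by how many arrays there were. The script was tested on simulated data.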

Additional observations from a re-analysis of the deposited data

Results flagged for a closer look

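In the 62 sets of 4 arrays (31 genes in DFO and in DMSO), the gap between the end array and its neighbour, as a share of the set's whole range, was set against Dixon's 95% critical value for 4 samples; chance alone gives about 1 in 20. On the deposited signals 17 sets passed, and in each the array was DFO 1 or DMSO 1, the 2 arrays of the high level. For DFO 1 the shares were 0.874 (ALAD), 0.844 (UROS), 0.936 (CPOX), 0.879 (PPOX), 0.834 (FECH), 0.886 (ISCU), 0.969 (ISCA2), 0.949 (FDX1), 0.841 (SLC25A37), 0.834 (SLC25A28), 0.885 (NUBPL) and 0.974 (NUBP1). For DMSO 1 they were 0.873 (PPOX), 0.847 (ISCA2), 0.853 (HSCB), 0.876 (FDX1) and 0.909 (NUBP1). After the fitted level shift was removed 1 set passed, ABCB10 in DFO 3 with a share of 0.914. The shift of the high level was fitted from DFO 1 and DMSO 1 alone. Its removal draws both towards their groups, so this second count cannot show whether they were outliers. The rate of 1 in 20 need not hold for the adjusted values.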

How the results depend on the processing

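The reported counts were 2 genes called for DFO, 5 for Deferasirox and 0 for OICR623, each against DMSO. Without a block, with arrays centred on their median and no block, with quantile normalization and no block, and in the middle level alone, the counts were 0 for all 3 compounds; in the middle level ALAS1 had changes of 0.36, 0.34 and 0.38 with adjusted p values of 0.096, 0.11 and 0.15. With the replicate number as a block over all arrays 0 genes were called as well, and with that block on the 8 DFO and DMSO arrays 2 were. With a new level only at gaps over 0.1, the counts were 1 for DFO and 1 for Deferasirox. With the level as a random block they were 1 for DFO (SLC25A38 lost), 4 for Deferasirox (ISCA1 lost) and 1 for OICR623 (ALAS1), with the arrays of both groups alone 2 for Deferasirox, and with the dimmest genes left out 2 for DFO, 6 for Deferasirox (SLC25A37 gained) and 1 for OICR623 (ALAS1). Quantile normalization with the level block gave 2, 5 and 0, with ISCA1 lost and SLC25A37 gained under Deferasirox. Intensity trend and robust moderation gave 3 for DFO (CIAO1 gained, lower), 6 for Deferasirox (SLC25A37 gained, higher), 3 for OICR623 (ALAS1 higher, SLC25A28 and CIAO1 lower) and 1 for Deferasirox against DFO (lower). Leaving out 1 array gave 1 to 2 genes for DFO (1 without DFO 2, 3 or 4 or DMSO 3 or 4), 2 to 4 for Deferasirox (2 without Deferasirox 1, Deferasirox 3 or DMSO 4, and 3 without DFO 2, DFO 4, DMSO 2 or DMSO 3) and 0 to 1 for OICR623 (1 without DFO 1, DFO 3 or DMSO 1), and 0 in each pair of compounds. Without both high-level arrays, an alternative chosen after seeing the data, OICR623 had 1. Under Deferasirox FLVCR1 and ISCA1 were then lost and SLC25A37 was gained. With DMSO 1 or DFO 1 left out, the other is alone in its level and adds nothing to the estimates. The fits without DMSO 1, without DFO 1 and without both are thus the same fit and count once. The ISCA1 row changed sign under Deferasirox, with -0.09 without a block and -0.27 with the replicate block over all arrays. With the other rows of GLRX5, ISCA1 and SLC25A37, also an alternative chosen after seeing the data, 1 call was lost, that of ISCA1 under Deferasirox. With the mean of all rows of a gene 1 call was lost as well. The median of all genes lay at 0.002 for DFO, -0.15 for Deferasirox and -0.11 for OICR623 without a block. With the level as a block it lay at 0.002, 0.002 and 0.003. DMSO and DFO each had an array in the high level, while Deferasirox and OICR623 had none. The cause of these differences was not tested.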
